A study of Drosophila melanogaster with 9 samples.

Results

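Antisense RNA genes (asRNA genes) are non-coding genes that lie on the opposite DNA strand of another gene. The members described here were the rows of the gene table with the biotype ncRNA and a FlyBase symbol that starts with asRNA:, and with at least 10 counts in each of 9 libraries. These were 91 of the 502 asRNA genes of the table and of its 23932 features. All libraries came from heads of untreated wild type Dahomey flies that were 0 to 5 days old, lysed with cycloheximide, which stalls ribosomes on RNA. The 80S monosome group (80S) held RNA from the gradient fractions of single ribosomes, the polysome group (POLY) held RNA from the fractions of several ribosomes on 1 RNA, and the total RNA group (TOT) was a part of the same cytoplasmic lysate kept back from the gradient. Each group had 3 libraries, numbered 1 to 3, from pooled heads of flies whose sex is not given in the sources used here, and ribosomal RNA was depleted in all of them. Sedimentation in the fractions of ribosomes is what was measured, and it does not by itself show that an RNA was bound by ribosomes or translated. Whether the replicates came from separate collections of flies is not given in the sources used here, so that p-values measure the spread between these libraries, which may be technical.

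When a transcript overlaps the exons of a gene on the other strand, the 2 RNAs are complementary over that stretch and can pair into double-stranded RNA. In flies, Dicer-2 cuts long double-stranded RNA into small interfering RNAs that are loaded onto Argonaute 2, and ADAR edits adenosines within it. An antisense RNA can also act where it is made, through transcription across the promoter or end of its neighbour. Non-coding RNAs in the cytoplasm can carry ribosomes on short open reading frames, and ribosomes that stop early on such an RNA can expose it to nonsense-mediated decay.

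The members were chosen by their counts, and no difference between fractions entered the choice. It kept out any asRNA gene with under 10 counts in any 1 library, and so also genes of low abundance that were low in 1 fraction only. A count of 10 stood for a higher level in a smaller library. Polysome replicate 1 was the smallest, so that the minimum was strictest there. Just inside it, asRNA:CR43463 (antisense to Pgant35A), asRNA:CR45275 (antisense to CG14483) and asRNA:CR45714 (antisense to Hayan, a serine protease) each had a lowest count of 10. Just outside, the lowest counts were 9.5 for asRNA:CR46005 (antisense to l(3)mbn) and 9 for both asRNA:CR44960 (antisense to CG33178) and asRNA:CR44961 (antisense to gce, a juvenile hormone receptor). Of the other 411 asRNA genes, 16 had a count of 0 in every library, and 113 were still abundant enough to be tested. A minimum of 5, 20 or 50 counts would have kept 141, 57 or 28 genes.

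Library totals lay between 13555484 counts in polysome replicate 1 and 44096558 in 80S monosome replicate 3. The labelled tissue was checked against fixed marker lists. All 5 photoreceptor markers were present, at a summed level of 13808 to 16047 CPM (counts scaled to the size of the library, with TMM factors) in the 80S monosomes, 11677 to 13976 in the polysomes and 17917 to 20554 in the total RNA. Of 6 testis markers in the table, 5 had a mean under 1 CPM, and the other was fzo, at 6.23 CPM or more in each library. Of 5 ovary markers, 2 had a mean under 1 CPM, and the 5 summed to 11.6 to 21.2 CPM in the 80S monosomes, 5.72 to 17.0 in the polysomes and 6.74 to 20.4 in the total RNA. The 5 neuron markers summed to 3799 to 4128 CPM in the 80S monosomes, 5614 to 5801 in the polysomes and 4185 to 4697 in the total RNA, so that their sum was highest in polysomes, while nSyb alone was not. The sum of the 5 muscle markers overlapped between the fractions. It was 7457 to 12246 CPM in the 80S monosomes, 8426 to 12805 in the polysomes and 6822 to 9357 in the total RNA. Single muscle markers differed. sls was at 644 to 922 CPM in the 80S monosomes, 2618 to 5692 in the polysomes and 1457 to 2421 in the total RNA. Mhc was at 5003 to 9215, 3836 to 5162 and 3345 to 4334 CPM in the same order. Tm2 and Act88F were highest in the total RNA, and up overlapped between the fractions.

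The 91 members lay on all major chromosome arms, with 13 on 2L, 19 on 2R, 16 on 3L, 21 on 3R, 4 on chromosome 4 and 18 on X. Their merged exons covered between 380 and 7622 bases, with a median of 1498. Most were simple transcripts, with 1 exon in 33, 2 exons in 36 and more in 22. The gene with the largest exon overlap on the other strand was protein-coding for 90 of them. In the remaining pair both were asRNA genes, asRNA:CR45330 and asRNA:CR46479. A median of 57.3% of the exon bases of a member overlapped the exons of the opposite gene, and in 76 members the overlap reached coding sequence. In 34 pairs the asRNA lay inside the span of the other gene, in 16 it spanned that gene, in 18 the pair was head-to-head (the start of the other gene lay within the asRNA) and in 23 it was tail-to-tail. Members shared 2 partners, as both asRNA:CR43425 and asRNA:CR44029 lie opposite unc-13, and asRNA:CR17025 and asRNA:CR46354 lie opposite side-IV.

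Members were low in abundance. Their mean level over the 9 libraries had a median of 2.22 CPM, with a lowest value of 0.645 and a highest of 117. Per kb of exon, the median level was 1.70 CPM. The opposite gene was usually the more abundant of the pair, as the level per kb of a member had a median of 19.4% of that of its opposite gene and exceeded it in 24 of 91 pairs. Across the 91 pairs the log2 levels per kb had a Pearson correlation of 0.19 (Spearman 0.11), as a description of genes measured in the same libraries. Reads were assigned by strand, and how many counts of an asRNA were reads of its opposite gene placed on the wrong strand was not tested. Exons of 15 members also overlap an annotated feature on their own strand, with which reads were split. As each library pools all cells of the head, a low level in many cells cannot be told apart from a high level in few.

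The highest level per kb was that of asRNA:CR45601 (FBgn0267161, X:10054235-10055109, minus strand, BDGP6), whose 875 exon bases all lie opposite coding sequence of Yp1, a yolk protein gene. It was at 39.3, 160 and 172 CPM in the 80S monosome libraries, 88.5, 256 and 119 in the polysome libraries and 59.6, 79.9 and 82.0 in the total RNA. Replicate 1 was the lowest library of each fraction, and polysome replicate 2 was the highest of all. The 80S monosome libraries overlapped with both other fractions, while every polysome library was above every total RNA library. No comparison passed the threshold of 0.01 in edgeR, with adjusted p = 0.67 for polysomes over 80S monosomes, 0.26 for 80S monosomes over total RNA and 0.100 for polysomes over total RNA. Relative to Yp1 per kb, it was at 0.989, 2.87 and 2.97% in the 80S monosomes, 3.09, 5.45 and 2.55% in the polysomes and 1.31, 1.27 and 1.20% in the total RNA, and the part of wrong-strand reads of Yp1 in these values was not tested. The same polysome library also stood out for several asRNA genes opposite genes that were very abundant per kb. These asRNA genes were named after their values were seen. That library was the lowest polysome library of asRNA:CR42860 and asRNA:CR44029, opposite sls and unc-13. Both sls and unc-13 were above Ald1, the aldolase gene, in mean CPM (2287 and 1709 against 1288). Per kb they were below it (38.8 and 75.6 against 338). Polysome replicate 2 had 47.5 CPM of asRNA:CR11538, antisense to the storage protein gene Lsp2, against 5.38 and 7.15 in the other polysome libraries. It had 8.10 CPM of asRNA:CR44095, antisense to Cys, against 1.23 and 1.70, and 2.81 CPM of asRNA:CR44321, antisense to the aldolase gene Ald1, against 1.08 and 1.36. These 3 were at 0.0791 to 1.17% of Lsp2, 0.212 to 1.52% of Cys and 0.256 to 1.56% of Ald1 per kb over the 9 libraries, and the part of wrong-strand reads of these genes in their values was not tested. None of these 3 passed the threshold in any comparison without the replicate number as a block, and with it asRNA:CR44321 was higher in polysomes than in the total RNA (edgeR, adjusted p = 0.000937).

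The second highest level per kb was that of asRNA:CR46194 (FBgn0267913, 2R:12169558-12171706), which overlaps 279 bases of SmD3, a core protein of spliceosomal snRNPs, and also exons of Oda on its own strand. It lay between 78.4 and 109 CPM in all 9 libraries. Its level per kb was 6.35 times that of SmD3. It was 0.31 lower in polysomes than in the 80S monosomes on the log2 scale (edgeR, adjusted p = 0.019), short of the threshold, which it passed with the replicate number as a block (adjusted p = 0.000940). Next came asRNA:CR44062, asRNA:CR46074, asRNA:CR45873 and asRNA:CR44029, which are described with the comparisons.

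As a share of all counts, the members together made up 0.0684, 0.0716 and 0.0779% of the 80S monosome libraries, 0.0631, 0.0771 and 0.0613% of the polysome libraries and 0.0531, 0.0515 and 0.0543% of the total RNA libraries. Each gradient library was above each total RNA library, while 80S monosomes and polysomes overlapped. The most abundant members weigh heavily in these sums. The CPM of the median member was 2.81, 2.53 and 2.34 in the 80S monosomes, 2.23, 2.15 and 1.96 in the polysomes and 2.23, 1.95 and 2.06 in the total RNA.

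To ask which asRNAs sedimented with single ribosomes, 80S monosomes were compared with total RNA. asRNAs shifted towards the 80S monosomes. The log2 fold change was above 0 for 70 of 91 members and below 0 for 21, whereas 47.9% of all 13076 tested features were above 0. Its median was 0.51 over the members and -0.02 over all tested features. At an adjusted p under 0.01 (edgeR quasi-likelihood test), 11 members (12.1%) were higher in the 80S monosomes, where 6.68% of all tested features were, and 1 (1.10%) was lower, where 8.95% were. The 3 libraries did not overlap and were higher in the 80S monosomes for 42 members, and lower for 5, with 22.8% and 25.6% of all features doing so. With the replicate number as a block, 30 members were higher and 3 lower, with 15.3% and 19.2% of all tested features so called. Without total RNA replicate 2 or 3, 4 or 5 were higher, and without replicate 1 of total RNA, 7. The count that were lower was 0 without 80S monosome replicate 2 or 3 or any 1 of the total RNA libraries, and 2 without polysome replicate 1 or 2.

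**Figure D1:**
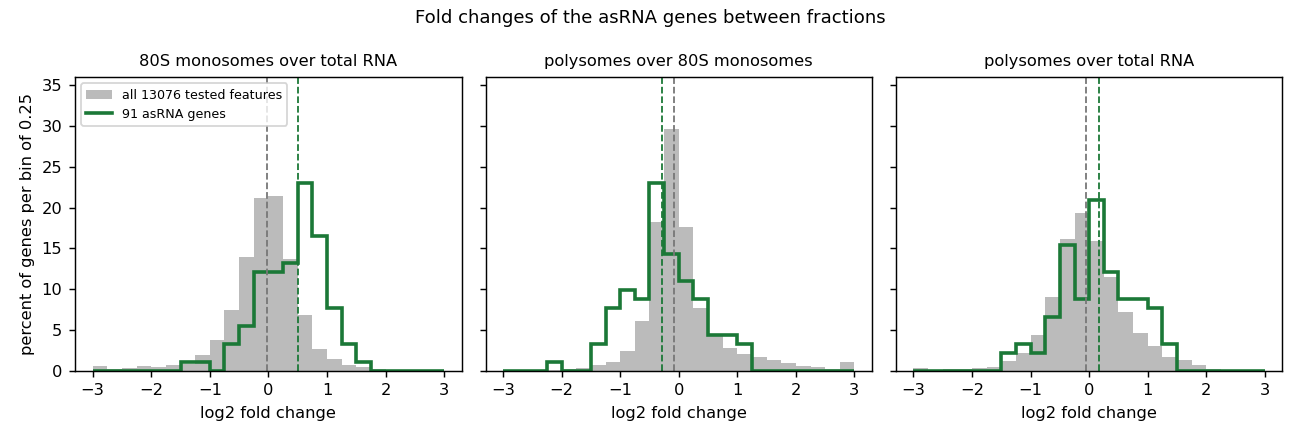
Distribution of the log2 fold change in 3 comparisons, as the percent of genes in bins of 0.25, for the 91 asRNA genes (green line) and all 13076 tested features (grey bars), with fold changes beyond 3 in the end bins. Dashed lines mark the medians, which for the asRNA genes are 0.51, -0.29 and 0.17 from left to right, against -0.02, -0.08 and -0.05 for all features.

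The largest enrichment in the 80S monosomes was that of asRNA:CR45281 (FBgn0266819, 2R:9559255-9565190), which spans Alp6, an alkaline phosphatase gene with a level near 0 in these heads. It was at 31.4, 21.4 and 24.4 CPM in the 80S monosomes and at 9.21, 8.15 and 9.33 CPM in the total RNA. The fractions did not overlap, and the 80S monosome level was 2.88-fold higher (log2 1.52, SE 0.18, adjusted p = 0.000244). In polysomes it was at 21.4, 14.2 and 14.3 CPM, also above total RNA (log2 0.89, SE 0.18, adjusted p = 0.00327), although that second call was lost without total RNA replicate 2 or 3 (adjusted p = 0.0137 and 0.0114).

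asRNA:CR45007 (FBgn0266359, 2L:9937232-9938833) is head-to-head with Arglu1 and overlaps 756 of its exon bases. It had 4.79, 3.81 and 3.30 CPM in the 80S monosomes, 2.92, 2.94 and 2.89 in the polysomes and 1.67, 1.52 and 1.45 in the total RNA. All 6 gradient libraries were above all total RNA libraries. The fold change over total RNA was 2.53 in the 80S monosomes (log2 1.34, SE 0.18, adjusted p = 0.000539) and 1.89 in polysomes (log2 0.92, SE 0.19, adjusted p = 0.00341). Arglu1 itself was higher in polysomes than in the total RNA (log2 0.77, adjusted p = 0.000948).

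The next 3 members by fold change also passed the threshold. asRNA:CR45873 (FBgn0267533, 3L:9456339-9457296), of whose 958 exon bases 870 lie opposite CG3437, was at 18.9, 13.2 and 13.5 CPM in the 80S monosomes, 8.23, 6.09 and 6.81 in the polysomes and 6.70, 5.24 and 6.20 in the total RNA. Its 80S monosome libraries were above all others (log2 1.32 over total RNA, SE 0.17, adjusted p = 0.000411), and polysomes were lower than 80S monosomes (log2 -1.12, SE 0.17, adjusted p = 0.000948). Part of its exons overlaps CG3552 on the same strand. asRNA:CR44368 (FBgn0265499, 2R:14168844-14170917, antisense to CG18324) was at 23.7, 15.2 and 18.2 CPM in the 80S monosomes, 13.0, 6.15 and 8.94 in the polysomes and 8.71, 7.28 and 8.47 in the total RNA, with a log2 fold change of 1.21 over total RNA (SE 0.23, adjusted p = 0.00307). asRNA:CR44181 (FBgn0265070, 2L:10695058-10698195, antisense to CG7300) was at 22.2, 13.3 and 12.3 CPM in the 80S monosomes and 7.70, 7.44 and 6.29 in the total RNA (log2 1.14, SE 0.21, adjusted p = 0.00254). In both, replicate 1 was the highest of the 80S monosome libraries. The first call was lost without any 1 of the total RNA libraries (adjusted p up to 0.0158), and the second without total RNA replicate 2 or 3 (up to 0.0171).

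The remaining members higher in the 80S monosomes than in the total RNA were the genes antisense to CG5112 (log2 1.12), CG13795 (0.95), unc-13 (0.87), Lfg (0.77), CG17162 (0.75) and CG43341 (0.58), and none of their opposite genes passed the threshold in this comparison, although unc-13 was higher in the 80S monosomes with the replicate block (log2 0.38, adjusted p = 0.00130). The 1 member that was lower in the 80S monosomes was asRNA:CR45330 (FBgn0266869, 2L:13241807-13244724). It had 1.35, 0.812 and 0.804 CPM in the 80S monosomes, 1.38, 0.595 and 1.49 in the polysomes and 2.87, 2.67 and 2.53 in the total RNA, so that every gradient library was below every total RNA library. Its 80S monosome level was 2.83-fold lower (log2 -1.50, SE 0.32, adjusted p = 0.00500), a call that was lost in 5 of 9 fits with 1 library left out (adjusted p up to 0.0232).

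**Figure D2:**
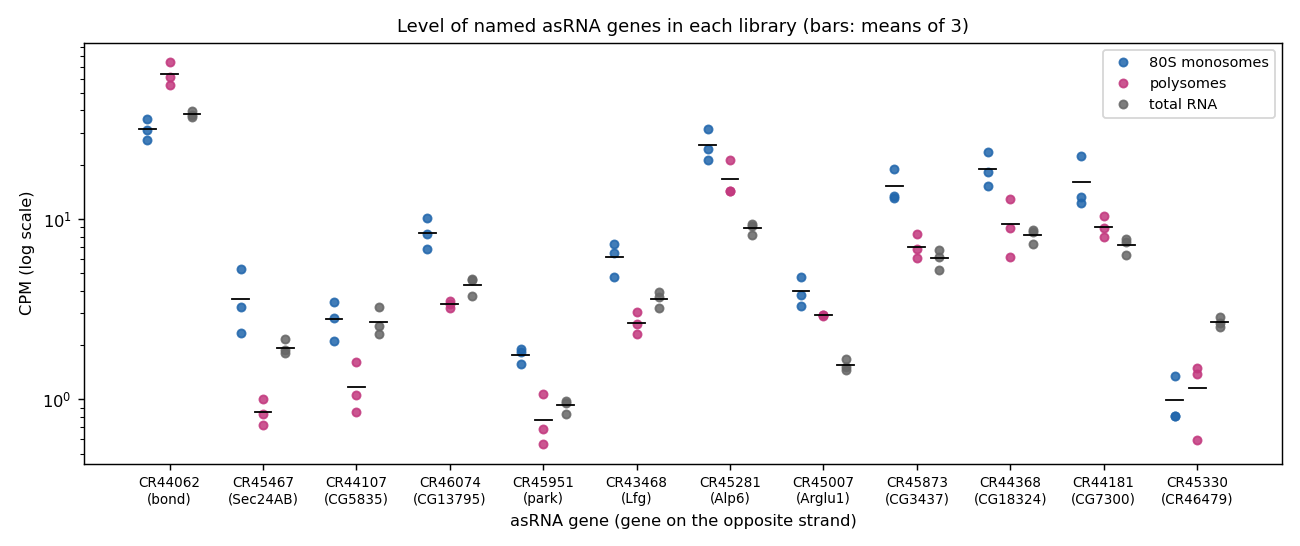
Level in CPM on a log scale of 12 asRNA genes, which are up to 5 with the largest fold changes past the threshold in each direction of polysomes over 80S monosomes and of 80S monosomes over total RNA, with the opposite-strand gene in brackets. Points are single libraries and bars are means of 3. In asRNA:CR44062 the polysome libraries lie above both other fractions, in asRNA:CR45330 the total RNA libraries do, and in most others the 80S monosome libraries are highest.

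Polysomes were then compared with 80S monosomes, to separate asRNAs that sedimented with polysomes from those that sedimented with 80S monosomes. Members were mostly lower in polysomes. The log2 fold change was below 0 for 62 members and above 0 for 29, where 40.9% of all tested features were above 0, and its median was -0.29 against -0.08. By edgeR, 12 members (13.2%) were lower in polysomes, where 4.31% of all tested features were, and 1 (1.10%) was higher, where 7.87% were. Libraries did not overlap for 27 members that were lower (20.6% of all features) and for 6 that were higher (15.9%). The replicate block gave 27 lower and 4 higher, where it called 14.2% of all tested features lower and 12.8% higher. The count that were lower was 5 or 4 without polysome replicate 2 or 3 and 6, 7 and 6 without total RNA replicate 1, 2 and 3, and 2 were higher without 80S monosome replicate 1.

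asRNA:CR44062 (FBgn0264871, 3R:22550032-22552687, minus strand) was the member that was higher in polysomes. It lies head-to-head with bond, which encodes a fatty acid elongase, and 184 of its exon bases overlap exons of bond outside the coding sequence. It was at 27.3, 31.0 and 35.8 CPM in the 80S monosomes, 74.4, 55.2 and 61.5 in the polysomes and 39.6, 37.9 and 36.9 in the total RNA. The 3 fractions did not overlap, with polysomes highest and 80S monosomes lowest. The polysome level was 2.02-fold that of 80S monosomes (log2 1.01, SE 0.13, adjusted p = 0.000198) and was above total RNA by 0.74 on the log2 scale (SE 0.12, adjusted p = 0.00113). bond did not follow it, with 20.8, 25.4 and 27.7 CPM in the 80S monosomes, 19.5, 22.8 and 22.8 in the polysomes and 34.1, 37.6 and 33.5 in the total RNA, and was lower in polysomes than in the total RNA (log2 -0.69, adjusted p = 0.00118).

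At the other end was asRNA:CR45467 (FBgn0267023, 2R:9881396-9882605), head-to-head with Sec24AB, which encodes a cargo-binding subunit of the COPII coat. It was at 5.26, 2.34 and 3.24 CPM in the 80S monosomes, 1.0, 0.827 and 0.723 in the polysomes and 1.87, 1.80 and 2.15 in the total RNA. The fractions did not overlap, and the order was the reverse of that of asRNA:CR44062. Polysomes were 4.22-fold lower than 80S monosomes (log2 -2.08, SE 0.31, adjusted p = 0.000770), a call that held in every alternative. Over the same libraries Sec24AB had 255.7, 223 and 220.3 CPM in the 80S monosomes and 189.7, 184 and 181 in polysomes (log2 -0.33, adjusted p = 0.0137, and 0.000720 with the replicate block).

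asRNA:CR46074 (FBgn0267743, 2L:7724576-7724976) is a short gene whose 401 exon bases all lie opposite coding sequence of CG13795. It was at 10.2, 6.86 and 8.22 CPM in the 80S monosomes, 3.23, 3.37 and 3.53 in the polysomes and 4.57, 3.75 and 4.65 in the total RNA. The 80S monosome libraries were above all others and the polysome libraries below all others. It was 2.46-fold lower in polysomes than in the 80S monosomes (log2 -1.30, SE 0.17, adjusted p = 0.000316) and 1.93-fold higher in the 80S monosomes than in the total RNA (log2 0.95, SE 0.16, adjusted p = 0.00180). CG13795 did not pass the threshold in either comparison (log2 0.25 and -0.30).

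The other members lower in polysomes included asRNA:CR44107 (FBgn0264916, 3R:19149122-19149557), of whose 380 exon bases 358 lie opposite the coding sequence of CG5835. It was at 2.81, 3.47 and 2.10 CPM in the 80S monosomes, 1.62, 1.06 and 0.851 in the polysomes and 3.24, 2.29 and 2.56 in the total RNA, with polysomes below both other fractions (log2 -1.31 against 80S monosomes, SE 0.28, adjusted p = 0.00682). asRNA:CR45951 (FBgn0267613, 3L:21194617-21196136) is tail-to-tail with park, the gene of the ubiquitin ligase parkin, and was at 1.82, 1.57 and 1.90 CPM in the 80S monosomes and 1.08, 0.562 and 0.681 in polysomes (log2 -1.26, SE 0.27, adjusted p = 0.00616). These 2 calls rested on few counts, and each was lost under 9 of 16 alternatives (adjusted p up to 0.0391 and 0.0335). asRNA:CR43468 (FBgn0263445, 2R:12875164-12877280), which spans Lfg, had 7.29, 6.52 and 4.78 CPM in the 80S monosomes, 2.61, 3.04 and 2.30 in the polysomes and 3.94, 3.19 and 3.70 in the total RNA. It was lower in polysomes than in the 80S monosomes (log2 -1.20, SE 0.20, adjusted p = 0.00128) under every alternative, but shares exon bases with AspRS, the aspartyl-tRNA synthetase gene, on its own strand.

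The remaining 7 members lower in polysomes had log2 fold changes between -1.15 and -0.44. They were antisense to gb, a transporter gene, CG3437, CG31522, CG18324, CG17162, CG5112 and RhoU, which encodes a small GTPase. Of the opposite genes of the 12 members, CG17162 was also lower in polysomes (log2 -0.38, adjusted p = 0.00312), and no other passed the threshold, while the replicate block also called Sec24AB and CG18324 (log2 -0.48, adjusted p = 0.00847) lower. Among the members with different positions, the median log2 fold change of polysomes over 80S monosomes was -0.43 for the 34 asRNAs inside the opposite gene, -0.33 for the 23 in tail-to-tail pairs, -0.02 for the 18 in head-to-head pairs and 0.06 for the 16 that span it. These differences between positions were not tested. Across the 91 genes, as a description of genes of the same libraries, this change had a Pearson r of 0.05 with the log2 length of the asRNA, -0.05 with its log2 level and -0.07 with the share of it that is overlapped. For 80S monosomes over total RNA these values were 0.26, 0.13 and 0.24, and for polysomes over total RNA 0.27, 0.06 and 0.14.

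Polysomes and total RNA, which share libraries with the comparisons above, gave a mixed picture. The median log2 fold change was 0.17 over the members and -0.05 over all tested features, and 56 members were above 0 where 46.1% of all features were. By edgeR, 6 members (6.59%) were higher in polysomes, where 10.4% of all tested features were, and 3 (3.30%) were lower, where 12.2% were. Libraries did not overlap for 20 members that were higher (24.8% of all features) and 18 that were lower (28.8%). With the replicate block the counts were 16 and 9, with 17.9% and 23.4% of all tested features so called. Without total RNA replicate 2 or 3, 2 or 1 were higher. The count that were lower was 6 without 80S monosome replicate 1, and 1 without polysome replicate 2 or 3 or total RNA replicate 1 or 2.

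Besides the genes antisense to bond, Alp6 and Arglu1, 3 members were higher in polysomes than in the total RNA. asRNA:CR46029 (FBgn0267693, 3R:16473229-16480850), with 7622 exon bases the longest member, is antisense to Gyc89Db, a guanylyl cyclase subunit gene. It had 7.54, 5.13 and 5.06 CPM in polysomes and 2.53, 2.98 and 2.37 in the total RNA (log2 1.14, SE 0.23, adjusted p = 0.00269, and 0.0128 without total RNA replicate 3). asRNA:CR44690 (FBgn0265901, X:2175817-2180816), which spans the cytochrome P450 gene Cyp4d2, had 22.6, 15.3 and 15.7 CPM in polysomes and 11.1, 10.5 and 9.45 in the total RNA (log2 0.77, SE 0.17, adjusted p = 0.00446, lost without polysome replicate 1 or total RNA replicate 2 or 3, up to 0.0215). asRNA:CR44176 (FBgn0265065, 3R:14421751-14422549), antisense to the neuropeptide gene natalisin, had 1.85, 1.19 and 1.87 CPM in polysomes and 0.834, 0.558 and 0.664 in the total RNA (log2 1.23, SE 0.29, adjusted p = 0.00711, lost under 6 of 16 alternatives, up to 0.0364). The 80S monosome libraries of the first lay between both fractions, those of the other 2 overlapped with polysomes, and none of the 3 passed the threshold between polysomes and 80S monosomes.

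Members lower in polysomes than in the total RNA were asRNA:CR44107, described above (log2 -1.26, SE 0.28, adjusted p = 0.00531), asRNA:CR43957 and asRNA:CR45160. asRNA:CR43957 (FBgn0264617, 4:56497-63124) is head-to-head with ci, the transcription factor gene of the Hedgehog pathway, and overlaps 53 of its exon bases. It had 2.03, 1.82 and 1.90 CPM in the 80S monosomes, 1.08, 0.992 and 0.809 in the polysomes and 1.93, 2.73 and 1.64 in the total RNA, so that polysomes were below both other fractions (log2 -1.15 against total RNA, SE 0.25, adjusted p = 0.00464). asRNA:CR45160 (FBgn0266653, 3L:5135542-5136224, antisense to CG10674) had 2.65, 3.25 and 3.01 CPM in the 80S monosomes, 1.85, 2.81 and 2.17 in the polysomes and 4.27, 5.18 and 4.93 in the total RNA (log2 -1.04, SE 0.19, adjusted p = 0.00148) and overlaps exons of Yod1 on the same strand. The calls of asRNA:CR44107 and asRNA:CR43957 were each lost in 5 of 9 fits with 1 library left out (up to 0.0304 and 0.0291).

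For each pair, the ratio of the asRNA to the gene on the opposite strand was then compared between fractions with limma, which asks whether both RNAs of a locus sediment alike. A ratio within a library does not depend on how the library was scaled. Pairs in which both genes were tested and exons overlap numbered 82 for the members, among 1796 such pairs of the annotation. An asRNA was set over its opposite gene, and in other pairs a non-coding gene over a protein-coding one. For 2 genes of 1 kind, the one with fewer exon bases was set over the other. Higher and lower among all pairs therefore do not always compare an antisense RNA with an mRNA. Per kb, the median asRNA was at 14.8% of its opposite gene in the 80S monosomes, 12.1% in the polysomes and 10.4% in the total RNA (83 pairs). In 80S monosomes over total RNA, 8 ratios of 82 (9.76%) were higher, where 2.17% of all 1796 pairs were, and none was lower, where 5.90% were. At an unadjusted p under 0.05, 36 were higher and 4 lower, where 11.2% and 24% of all pairs were. The median log2 change of the ratio was 0.46 over the members and -0.17 over all pairs. In polysomes over 80S monosomes 1 ratio was higher and 4 lower, where 1.28% and 3.12% of all pairs were, with a median of -0.20 against 0.00. In polysomes over total RNA 5 were higher and 7 lower, where 1.84% and 9.58% were, with a median of 0.25 against -0.17.

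With the replicate block, 25 ratios were higher and 1 lower in the 80S monosomes over total RNA, where 6.24% and 17.9% of all pairs were. It gave 3 and 13 in polysomes over 80S monosomes (4.45% and 8.41% of all pairs), and 14 and 10 in polysomes over total RNA (6.29% and 22.2%). Single libraries weighed on these counts. In 80S monosomes over total RNA, 2 ratios were higher without total RNA replicate 2, 3 without total RNA replicate 3, and 5 without 80S monosome replicate 1 or 3, polysome replicate 3 or total RNA replicate 1, and 1 was lower without 80S monosome replicate 2. In polysomes over 80S monosomes, 2 were lower without polysome replicate 3, and 2 higher without 80S monosome replicate 1. In polysomes over total RNA, 8 were higher without 80S monosome replicate 1, 1 without polysome replicate 1 or 3 or total RNA replicate 2, 2 without total RNA replicate 1 or 3, and 3 without polysome replicate 2. There, 4 were lower without polysome replicate 1 or 2, 3 without total RNA replicate 2, and 2 without polysome replicate 3 or total RNA replicate 1 or 3. The fold changes of an asRNA and its opposite gene had little relation to each other across 83 pairs, with a Pearson r of 0.09 for polysomes over 80S monosomes, 0.08 for 80S monosomes over total RNA and -0.06 for polysomes over total RNA.

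**Figure D3:**
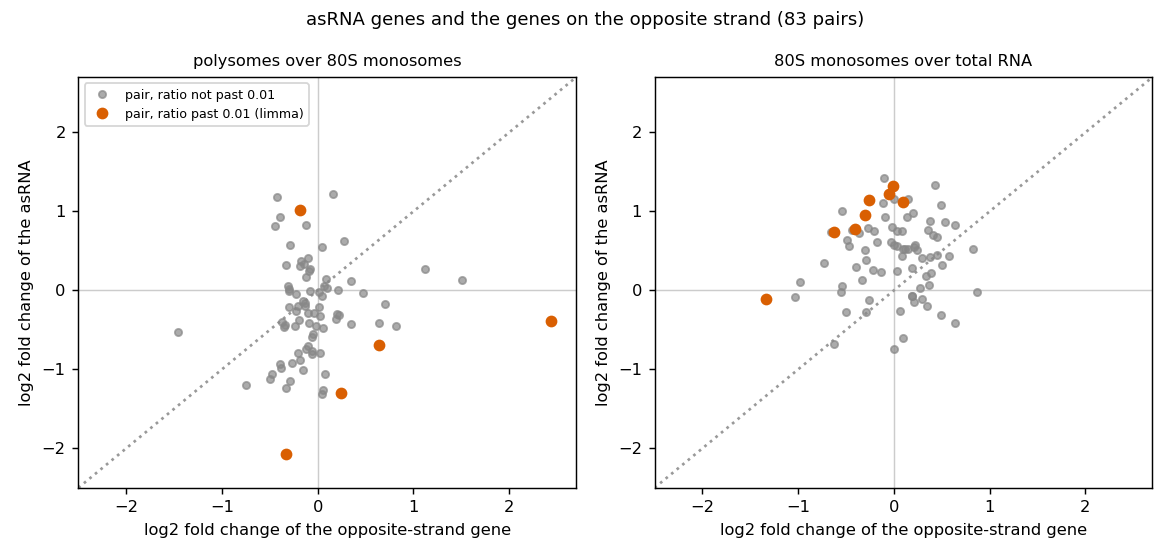
Log2 fold change of each asRNA (y axis) against that of the gene on the opposite strand (x axis) for 83 pairs, in polysomes over 80S monosomes (left) and 80S monosomes over total RNA (right). Orange points are pairs whose ratio passed 0.01 in limma, 5 on the left and 8 on the right, and the dotted line marks an equal change. On the right most points lie above 0 on the y axis, and the points on the left spread widely in y around opposite genes that changed little.

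The largest change of a ratio was at sls, which encodes a titin-like protein of the muscle sarcomere. asRNA:CR42860 (FBgn0262107, 3L:2088166-2089626) lies inside sls and overlaps 1089 of its exon bases, none of them coding. It was at 14.7, 10.2 and 13.2 CPM in the 80S monosomes, 12.9, 7.28 and 9.32 in the polysomes and 17.5, 10.6 and 12.8 in the total RNA, and the 3 fractions overlapped (log2 -0.39 for polysomes over 80S monosomes, edgeR adjusted p = 0.26). sls itself was at 922.4, 644.4 and 738.4 CPM in the 80S monosomes, 5692, 2618 and 4144 in the polysomes and 2421, 1457 and 1945 in the total RNA, the highest in polysomes. It was 2.43 higher in polysomes than in the 80S monosomes on the log2 scale (adjusted p = 9.14e-05) and 1.34 lower in the 80S monosomes than in the total RNA (log2 -1.34, adjusted p = 0.00371). As a share of sls per kb, the asRNA was therefore at 64.5, 64.0 and 72.0% in the 80S monosomes, 9.19, 11.2 and 9.08% in the polysomes and 29.3, 29.3 and 26.7% in the total RNA. The ratio changed by -2.77 in polysomes over 80S monosomes (SE 0.15, limma adjusted p = 7.71e-08), 1.23 in the 80S monosomes over total RNA (adjusted p = 0.000326) and -1.54 in polysomes over total RNA (adjusted p = 2.89e-05). In all 3 comparisons sls passed the threshold, and without the block the asRNA did in none. Within each replicate number, however, its polysome library was below both other libraries, and with the replicate block it was lower in polysomes than in the 80S monosomes (log2 -0.40, adjusted p = 0.00432) and than in the total RNA (log2 -0.49, adjusted p = 0.000601).

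At unc-13, which encodes a protein that primes synaptic vesicles for release, the asRNA and the mRNA differed in direction between polysomes and 80S monosomes. asRNA:CR44029 (FBgn0264821, 4:879374-884752) lies inside unc-13 and overlaps 705 of its coding bases. It was at 79.5, 52.2 and 59.2 CPM in the 80S monosomes, 43.3, 34.3 and 40.6 in the polysomes and 41.0, 29.2 and 33.7 in the total RNA. All 80S monosome libraries were above all others, and its level there was 1.83-fold that of total RNA (log2 0.87, SE 0.17, adjusted p = 0.00306). Against 80S monosomes its polysome level was 0.69 lower on the log2 scale, which missed the threshold (adjusted p = 0.0119) but passed it with the replicate block (adjusted p = 8.65e-07), while unc-13 was higher in polysomes (log2 0.64, adjusted p = 0.00273). The ratio fell by 1.30 in polysomes over 80S monosomes (SE 0.17, limma adjusted p = 0.000193). Between polysomes and 80S monosomes, unc-13 moved in the direction of the summed neuron markers, whose part in its change was not tested. In 80S monosomes over total RNA it had a log2 fold change of 0.38 (edgeR, adjusted p = 0.031), while the marker sum was lower. The second asRNA of this gene, asRNA:CR43425, was under 1% of unc-13 per kb on average and did not pass the threshold in any comparison (log2 -0.41, 0.42 and 0.01 in polysomes over 80S monosomes, 80S monosomes over total RNA and polysomes over total RNA).

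In the other 3 pairs past the threshold between polysomes and 80S monosomes, the asRNA passed it on its own and the opposite gene did not, except Sec24AB with the replicate block. For asRNA:CR45467 the share of Sec24AB per kb was 8.41, 4.29 and 6.01% in the 80S monosomes and 2.16, 1.84 and 1.63% in polysomes (log2 -1.67, SE 0.27, adjusted p = 0.00160). For asRNA:CR46074 the asRNA was the more abundant RNA per kb, at 900.2, 415 and 528% of CG13795 in the 80S monosomes and 189.7, 190.0 and 206% in polysomes (log2 -1.57, SE 0.26, adjusted p = 0.00169). Both of these calls were lost without polysome replicate 3 (adjusted p = 0.0102). asRNA:CR44062 was at 215, 200.2 and 211% of bond per kb in the 80S monosomes, 624, 396 and 442% in the polysomes and 190.5, 165 and 180.1% in the total RNA. Its ratio rose by 1.20 in polysomes over 80S monosomes (SE 0.16, adjusted p = 0.000361) and by 1.42 over total RNA (SE 0.16, adjusted p = 9.68e-05), the latter with the asRNA higher and bond lower.

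**Figure D4:**
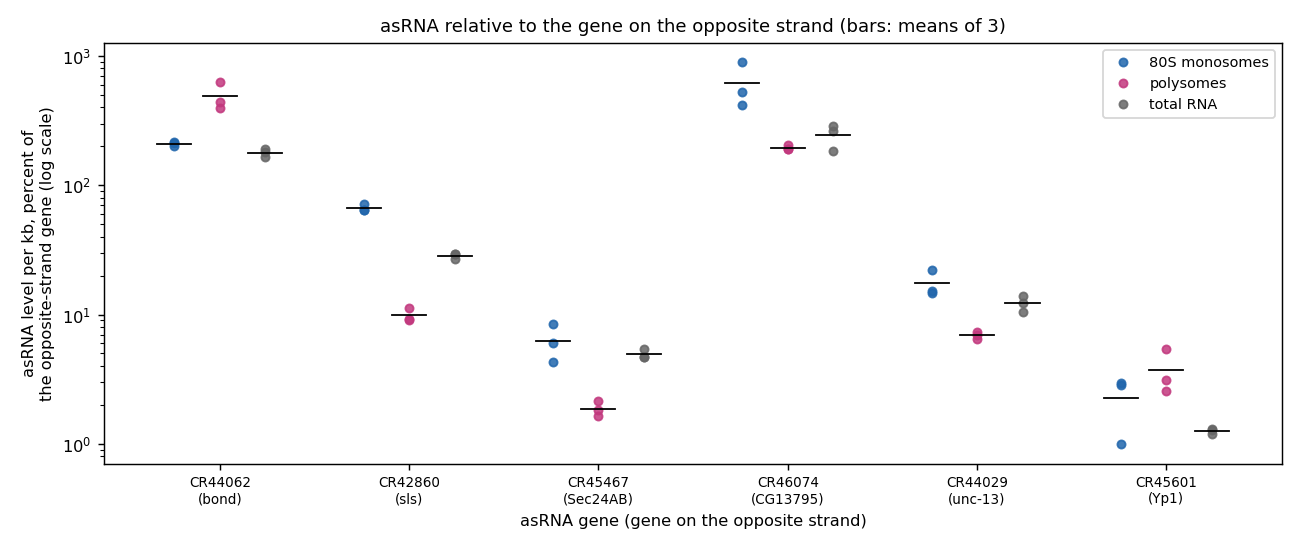
Level per kb of 6 asRNA genes in percent of the gene on the opposite strand, on a log scale, with 1 point per library and bars at the means of 3. Polysome libraries lie below 80S monosome libraries at sls, Sec24AB, CG13795 and unc-13 and above them at bond, while at Yp1 the 2 fractions overlap.

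In 80S monosomes over total RNA, the 8 higher ratios were those of the asRNAs at CG31522 (log2 1.37), CG7300 (1.37), CG3437 (1.31), CG13795 (1.27), CG18324 (1.26), sls (1.23), SLC5A11 (1.18) and CG5112 (1.01). In 5 of these pairs the asRNA was itself higher in the 80S monosomes. At CG31522 (log2 -0.63, adjusted p = 0.000541) and sls it was the mRNA that was lower in the 80S monosomes, and at SLC5A11, a cotransporter gene, neither RNA passed the threshold alone. With the replicate block both did at SLC5A11, with the asRNA higher (adjusted p = 0.00447) and the mRNA lower (adjusted p = 0.00158). The block also called CG7300 lower (adjusted p = 0.00869) and the asRNA at CG31522 higher (adjusted p = 0.00485). In polysomes over total RNA, the higher ratios included those at Yp1 (log2 1.48), bond (1.42), SLC5A11 (1.26) and Cyp4d2 (0.76), and the lower ones were at CG15909 (log2 -1.61), sls (-1.54), CG46434 (-1.52), Sec24AB (-1.38), ci (-1.15), Trf4-1 (-0.97), a gene of a noncanonical poly(A) polymerase, and unc-13 (-0.81). Among the lower ones the mRNA rose at CG15909, sls, CG46434 and unc-13, and at ci the asRNA fell. The replicate block in edgeR also called the asRNA lower at sls, Sec24AB (adjusted p = 0.00133), CG46434 (adjusted p = 0.00906) and Trf4-1 (adjusted p = 0.005975). It called the mRNA of Trf4-1 higher (adjusted p = 0.00985). Apart from those at bond, sls, Sec24AB, CG13795 and unc-13, these pairs were listed because they passed the threshold.

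The shift towards 80S monosomes was set beside those of other genes in the same fits. The 1500 nuclear protein-coding genes with 10 counts in each library and a mean CPM between the quartiles of the members had medians of -0.04 for 80S monosomes over total RNA and -0.15 for polysomes over 80S monosomes. The 223 lncRNA genes that met the same count minimum had medians of 0.18 and 0.01. Of these, 12.6% were higher and 7.62% lower in the 80S monosomes than in the total RNA (edgeR, adjusted p under 0.01). In polysomes over 80S monosomes, 13.5% were higher and 12.1% lower. The 81 tested genes on the opposite strand of the members had medians of 0.03 and -0.11. Of these, 4 (4.94%) were higher and 5 (6.17%) lower in the 80S monosomes than in the total RNA. The shares of all tested features were 6.68% and 8.95%. With the replicate block 16 were higher and 18 lower, where 15.3% and 19.2% of all tested features were. For the members the medians were 0.51 and -0.29. Of the members, 12.1% were higher and 1.10% lower in the 80S monosomes than in the total RNA. In polysomes over 80S monosomes 1.10% were higher and 13.2% lower. The lncRNA genes were thus called higher in the 80S monosomes, and lower in polysomes, about as often, but more often in the other directions. No test was made of these differences between groups of genes. Within the replicate numbers 1, 2 and 3, the median member was 0.58, 0.43 and 0.45 higher in the 80S monosomes than in the total RNA on the log2 scale, and polysomes over 80S monosomes gave -0.30, -0.33 and -0.36. The 76 members that share no exon base with a feature on their own strand, a choice made after seeing the data, had medians of 0.54 and -0.31, with 9 higher and 1 lower in the 80S monosomes than in the total RNA, where 6.68% and 8.95% of all tested features were.

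Genes of the pathways that handle double-stranded and aberrant RNA were followed in the same comparisons. Of the 10 tested among 11 listed genes of double-stranded RNA and small interfering RNA, Dcr-2, the Dicer that makes small interfering RNAs, was higher in the 80S monosomes than in the total RNA (log2 0.53, SE 0.09, adjusted p = 0.00138), as was the microRNA Dicer gene Dcr-1 (0.64). Adar, the editing enzyme, was higher in polysomes than in the 80S monosomes (log2 0.45, SE 0.09, adjusted p = 0.00452). r2d2, the partner of Dicer-2, was lower in polysomes than in the total RNA (log2 -0.59, SE 0.13, adjusted p = 0.00512), as was Fmr1 (-0.30), whereas Dcr-1 (0.70) and AGO1 (0.37) were higher there. AGO2, loqs, Hen1 and Tudor-SN passed in none of the 3 without the block.

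Of 12 listed symbols of nonsense-mediated decay genes, 10 were found in the annotation, and all of these were tested. Among them nonC, which encodes the kinase Smg1, was higher in polysomes than in the 80S monosomes (log2 0.88, SE 0.14, adjusted p = 0.000903) and than in the total RNA (0.96). Upf2 was higher in polysomes than in the total RNA (log2 0.32), and mago, of the exon junction complex, was lower in the 80S monosomes than in the total RNA (log2 -0.87). Of 20 listed symbols of RNA decay genes, 15 were found in the annotation, and all of these were tested. The scaffold Not1 of the deadenylase complex was higher in polysomes than in the 80S monosomes (log2 0.61). Its nuclease Pop2 (-0.36), the decapping factor Edc3 (-0.46) and the exosome nuclease Rrp6 (-0.38) were lower. The 5′ to 3′ exonuclease gene pcm was higher than in the total RNA in the 80S monosomes (log2 0.72) and polysomes (0.47), and Not1 was higher in polysomes than in the total RNA (0.69). The other tested genes of these lists passed in no comparison. The replicate block lost none of these calls and added more. In polysomes over 80S monosomes it called 1 gene of the first list higher and 5 lower, 2 and 1 of the second, and 1 and 4 of the third. Of all tested features it called 12.8% higher and 14.2% lower there. In 80S monosomes over total RNA it called 3 and 0, 3 and 1, and 4 and 0 (15.3% and 19.2% of all tested features). In polysomes over total RNA it called 4 and 3, 4 and 1, and 2 and 2 (17.9% and 23.4%).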

How the data were processed

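RNA was measured by single-read, stranded sequencing of 9 libraries, 3 each of 80S monosomes, polysomes and total RNA. The authors trimmed reads with Trimmomatic 0.33, mapped them with STAR 2.7.10a to BDGP6 and deposited estimated counts per gene from featureCounts 2.0.1, without normalization. A read that maps to several places, or over several features on 1 strand, was split evenly, so that values need not be whole. Gene symbols, biotypes and positions came from a later Ensembl release of the same assembly than the one the authors counted on, so that exon lengths, overlaps and levels per kb rest on the later gene models (81 of 23932 features had no match and stayed in the fit). A second deposited table, by transcript, was not used here.

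Estimated counts were rounded and fitted with edgeR 4.0.16 in R 4.3.3 (filterByExpr, TMM, robust quasi-likelihood fit of all 9 libraries without a block). The 3 comparisons were adjusted by Benjamini-Hochberg over 13076 features, with a threshold of 0.01. Standard errors are the log2 fold change over the square root of F. CPM use TMM-scaled library sizes. Ratios of opposite-strand pairs were log2 CPM ratios (prior count 0.5) tested with limma 3.58.1 (robust, trended) over 1796 pairs. The tests were first tried on simulated data. DESeq2 1.42.0, other scalings, filters, libraries and thresholds were alternatives.

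The members, lists and tests were chosen with earlier results of these data known. Named were the 6 members with the highest CPM per kb, the 5 largest fold changes past the threshold in each comparison and direction, the 5 largest ratio changes between polysomes and 80S monosomes in each direction, the 3 genes on each side of the count minimum, and their opposite genes. Replicate numbers pair the libraries, as total RNA was part of the lysate that was fractionated. Deviations from the fraction means correlated positively in all 9 same-number pairs (0.18 to 0.42) and in none of 18 others (-0.33 to 0.00). Such deviations cancel out within a fraction, so that the 18 values are not independent of the 9. Members differed between replicates by 2.21 to 31.2 in chi-square per degree of freedom, so that no library was a copy of another. Base composition, open reading frames and sequences of the asRNAs were not analysed here, and 1 ratio past the threshold is not reported here.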

Additional observations from a re-analysis of the deposited data

How the results depend on the processing

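The medians of the log2 fold change over the members kept their sign under every alternative run. For polysomes over 80S monosomes the median was -0.26 with DESeq2, -0.24 with relative log expression size factors, -0.22 with scaling on nuclear protein-coding genes, -0.26 with at least 10 counts in each library, -0.23 with the 6 libraries compared and -0.38 to -0.20 with 1 library left out. For 80S monosomes over total RNA it was 0.39 to 0.56, and for polysomes over total RNA 0.057 to 0.32, with 1 library left out. Counts of calls moved more. DESeq2 gave 4 higher and 19 lower in polysomes over 80S monosomes, 20 and 3 in the 80S monosomes over total RNA, and 13 and 6 in polysomes over total RNA. The replicate block gave 4 and 27, 30 and 3, and 16 and 9, and for the ratios to the opposite gene 3 and 13, 25 and 1, and 14 higher in the last, and it lost no call of the 24 named members and added 6, 6 and 3 in the 3 comparisons. A threshold of 0.05 gave 4 and 24, 28 and 4, and 17 and 10, and for the ratios 2 and 10, 22 and 1, and 12 higher. Shares of all features or pairs at the adjusted threshold were worked out only for the main fit and the replicate block. Counts under the other alternatives therefore show how the calls moved, and cannot be set against such shares. With the 6 libraries compared, 5 members were lower in polysomes than in the 80S monosomes and 5 lower than in the total RNA, and without a filter 5 were lower than in the total RNA. A minimum of 10 counts gave 1 ratio lower in the 80S monosomes than in the total RNA. With 1 library left out, higher and lower counts ranged over 1 to 2 and 4 to 12, 4 to 13 and 0 to 2, and 1 to 8 and 1 to 6, and those of ratios over 1 to 2 and 2 to 6, 2 to 11 and 0 to 1, and 1 to 8 and 2 to 9. The count minimum of 5, 20 or 50 gave 141, 57 or 28 members. All 385 recomputed values of the 25 gene results kept their direction. At a median of 2.22 CPM the depth limits the test of single asRNAs, and a missed threshold does not show that fractions were alike.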

Other observations

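Of the 113 asRNA genes that were tested but missed the count minimum, few passed the threshold (edgeR), and those named here were chosen for that after their values were seen. In polysomes over 80S monosomes 2 (1.77%) were higher and 1 (0.885%) lower, where 7.87% and 4.31% of all tested features were. asRNA:CR43464, antisense to CG33543, had 2, 1 and 7 counts in the 80S monosomes, 13, 19.5 and 17 in the polysomes and 6, 4 and 9 in the total RNA, so that its polysome counts were the highest although those libraries were not the deepest (adjusted p = 0.00219). asRNA:CR45882, antisense to CG32085, had 6, 13 and 17 counts in the 80S monosomes and 21, 25 and 25 in polysomes (log2 1.70, adjusted p = 0.00491). asRNA:CR43864, antisense to CG32801, had 24, 43 and 49 counts in the 80S monosomes and 3, 9 and 7 in polysomes (log2 -1.98, adjusted p = 0.000712). The member with the largest fall in polysomes, asRNA:CR45467, had a log2 fold change of -2.08.

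Against total RNA, asRNA:CR30267, antisense to CG42260, was higher in both 80S monosomes (log2 1.62, adjusted p = 0.00294) and polysomes (log2 1.72, adjusted p = 0.00183), with 0.677, 0.787 and 0.714 CPM in the 80S monosomes, 0.615, 0.827 and 0.851 in the polysomes and 0.200, 0.248 and 0.253 in the total RNA. Every gradient library was above every total RNA library. It was the 1 gene (0.885%) called higher in the 80S monosomes, where 6.68% of all tested features were, and none was lower (8.95%). In polysomes over total RNA 4 (3.54%) were higher and 2 (1.77%) lower, where 10.4% and 12.2% of all tested features were. The other higher ones were antisense to CG33543 (log2 1.91), qkr58E-2 (1.86) and CG15528 (1.54). The lower ones were asRNA:CR33945 (log2 -2.31) and asRNA:CR44047 (log2 -1.51), antisense to betaGlu and Adss. Over all 113 genes, the median log2 fold change was 0.40 for 80S monosomes over total RNA, 0.04 for polysomes over 80S monosomes and 0.38 for polysomes over total RNA. For the members these medians were 0.51, -0.29 and 0.17, and the difference between both sets of genes was not tested.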
